A study of Mus musculus with 6 samples.

Results

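Lipid and cholesterol metabolism genes were followed in cells sorted from mouse small-cell lung cancer as high, or as negative or low, for a Hes1 reporter. The set lists 44 genes of known function, from fatty acid and sterol synthesis to lipid uptake, storage and oxidation. A gene was measured where a row of the array table names that gene and no other, and the row with the highest mean was taken. This held for 40 of the 44, out of 22179 genes tested in all. Scd2, Acsl3 and Idi1 were listed only in rows that name several genes, and these and Acsl1 were not analysed here.

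The mice carried conditional alleles of Rb, p53 and p130 and a GFP reporter allele for Hes1, a transcriptional repressor that Notch signalling induces. Adenovirus carrying Cre was given into the trachea, and lung tumours were isolated 5 to 6 months later. Both groups share these alleles and the virus: 3 samples of GFP-high cells and 3 of GFP-negative cells, the second labelled negative or low, were sorted from pooled tumours. The protocol speaks of pools from 3 mice while the source name speaks of a mouse, and the strain, the age, the promoter driving Cre, the sorting gates and the origin of each replicate pool were not stated in the material used here. A p-value below thus weighs a difference against the spread of these samples alone, which may in part be technical, and 3 arrays a group limit the precision.

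Cells make fatty acids from cytosolic acetyl-CoA and then lengthen, desaturate and esterify them, while the mevalonate pathway turns the same precursor into cholesterol. Membrane-bound SREBP transcription factors switch on both pathways when sterols are low, SREBP-1 acting more on fatty acid genes and SREBP-2 on sterol genes, and the nuclear receptor LXR promotes efflux when sterols are high. In the lung, alveolar type 2 cells make large amounts of phosphatidylcholine for surfactant.

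Values below are log2 expression values after RMA, a method that corrects background, equalises the distributions of the arrays and summarises probes. Differences are GFP-high minus GFP-negative on the log2 scale with the standard error of limma, a linear model fitted to all 22179 genes. A gene was called at a Benjamini-Hochberg adjusted p under 0.05. Of all genes 13.0% were called higher and 17.0% lower, the shares to set beside the marker counts below. Hes1 itself averaged 10.40 in GFP-high and 6.85 in GFP-negative samples, a difference of 3.54 ± 0.13. Neuroendocrine markers were lower in GFP-high cells in 10 of 10 measured, and their summed linear level ran from 1976 to 4077 in GFP-high and from 12306 to 13830 in GFP-negative arrays. Alveolar type 2 markers were higher in 10 of 12, with summed levels of 15964 to 19517 in GFP-high and 1255 to 1778 in GFP-negative arrays. Alveolar type 1 markers were higher in 9 of 10 (7712 to 8780 in GFP-high and 1938 to 2381 in GFP-negative arrays). Club and secretory cell markers were higher in 10 of 12 (44287 to 49200 in GFP-high and 4508 to 7379 in GFP-negative arrays). In these mixed samples more cells of a type and more RNA per cell cannot be told apart. The part of these epithelial markers in the lipid gene differences was not tested. Leukocyte markers were 1 higher, 1 lower and 8 not passing of 10, with summed levels of 1098 to 1361 in GFP-high and 530 to 637 in GFP-negative arrays. That direction rests on Lcp1: without it, a sum added after seeing the data, the levels were 364.4 to 468.6 in GFP-high and 467.5 to 532 in GFP-negative arrays. The 9 markers left still hold Coro1a, the one called lower, with means of 5.89 in GFP-high and 6.98 in GFP-negative samples. A sum without both was not made, so no direction is read from these sums. Macrophage markers were 1 higher, 1 lower and 12 not passing of 14, with summed levels of 1514 to 3268 in GFP-high and 1392 to 2404 in GFP-negative arrays. Endothelial markers were 1 higher, 2 lower and 8 not passing of 11, fibroblast markers 1 higher, 1 lower and 10 not passing of 12, and adipocyte markers 1 higher and 7 not passing of 8. Named after their values were seen, the higher ones were Lcp1, Cd14, Kdr, Npnt and Lipe, and the lower ones Coro1a, C1qa, Vwf, Plvap and Dcn.

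The lipid genes moved in both directions, also within role groups such as the elongases and the efflux transporters. Fatty acid synthase, the desaturases Scd1 and Fads3, the elongase Elovl5, the droplet protein gene Plin2, Pparg and Ppargc1a were higher in GFP-high cells. Srebf2, the elongase Elovl6 and 4 of 7 measured enzymes of sterol synthesis were lower. Of the 40 measured genes 30 were called, or 75.0%, against 30% of all genes (6661). In direction, 17 were higher (13.0% of all genes were), 13 were lower (17.0% of all genes were) and 10 did not pass. With a log2 fold change of at least 1 as well, 10 were higher and 4 lower, where 5.63% and 6.02% of all genes were. The values of the groups did not overlap for 34 of the 40, against 44.6% of all genes. The median log2 fold change was 0.24 over the 40 genes and 0.01 over all genes. Within a group the replicate SD had a median of 0.15 in GFP-high and 0.15 in GFP-negative arrays, the same to 2 decimals as over all genes.

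**Figure D1:**
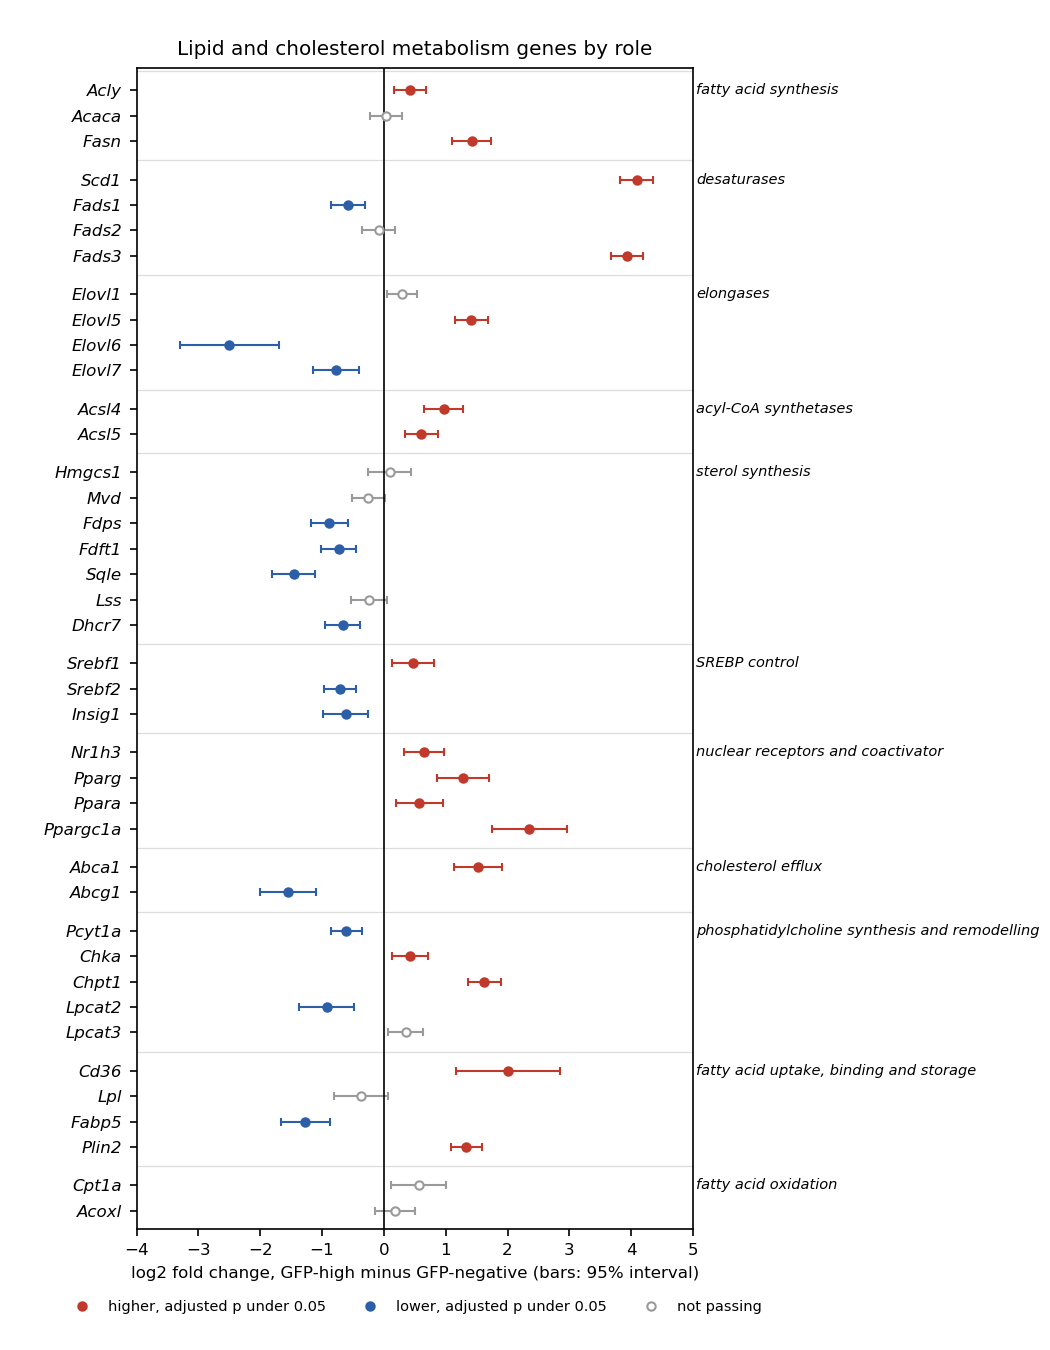
Log2 fold change (GFP-high minus GFP-negative, x axis) of the 40 measured lipid and cholesterol metabolism genes, grouped by role, with bars for the 95% interval of the moderated fit; filled points passed an adjusted p under 0.05. Scd1 and Fads3 lie near 4, Elovl6 lies at -2.50, and the called sterol synthesis genes all lie left of 0.

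Of the enzymes that make palmitate, fatty acid synthase rose most. Fasn, the multifunctional enzyme that builds palmitate, read 10.70, 11.00 and 10.69 in GFP-high arrays, against 9.42, 9.21 and 9.51 in GFP-negative arrays. Every GFP-high value lay above every GFP-negative one, and the difference was 1.42 ± 0.14 (2.68-fold, adjusted p = 0.000106). Acly, which supplies cytosolic acetyl-CoA from citrate, read 9.90, 10.01 and 10.05 in GFP-high and 9.60, 9.65 and 9.45 in GFP-negative arrays. Its rise was small, 0.42 ± 0.11 (adjusted p = 0.0217), and the adjusted p lay between 0.0539 and 0.0744 without GFP-negative replicate 1 or 3 or without GFP-high replicate 2 or 3. Acaca, the carboxylase that makes malonyl-CoA for the synthase, averaged 7.96 ± 0.13 in GFP-high and 7.92 ± 0.07 in GFP-negative samples (SD, n = 3 each). Its difference of 0.04 did not pass (adjusted p = 0.851), with a 95% interval from -0.23 to 0.30.

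The desaturases held the 2 largest changes of the set. Scd1, which places the first double bond in saturated fatty acids, read 12.66, 12.64 and 12.75 in GFP-high arrays, against 8.54, 8.74 and 8.51 in GFP-negative arrays. It rose 17.0-fold (4.09 ± 0.11, adjusted p = 1.83e-07), the 81st largest among the 22179 genes. Fads3, a member of the front-end desaturase family, read 10.55, 10.63 and 10.47 in GFP-high and 6.59, 6.52 and 6.74 in GFP-negative arrays. It rose 15.3-fold (3.93 ± 0.11, adjusted p = 1.83e-07), and in both genes the gap between the groups was many times the spread within them. Its relatives that desaturate polyunsaturated fatty acids did not follow. Fads1 fell by 0.58 ± 0.12, with 9.27, 9.25 and 9.43 in GFP-high and 9.75, 9.98 and 9.96 in GFP-negative arrays (adjusted p = 0.00589). Fads2 averaged 9.48 ± 0.12 in GFP-high and 9.56 ± 0.10 in GFP-negative samples (SD, n = 3 each) and did not pass (adjusted p = 0.661, 95% interval -0.35 to 0.19). Fads3, Fads2 and Fads1 are consecutive protein-coding genes in the RefSeq annotation of GRCm38.p6, so neighbours in 1 cluster differed in the direction and size of their change. The genes beside the cluster were Rab3il1, next to Fads3, which did not pass (0.10 ± 0.18), and Fen1, next to Fads1, which fell by 0.71 ± 0.16. Scd3 and Scd4, which lie with Scd2 beside Scd1 in that annotation, gave -0.44 ± 0.13 (adjusted p = 0.0333) and 0.26 ± 0.13 (adjusted p = 0.165).

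The fatty acid elongases moved in both directions. Elovl5, which lengthens polyunsaturated fatty acids, read 10.90, 10.94 and 10.95 in GFP-high and 9.42, 9.68 and 9.44 in GFP-negative arrays, a rise of 1.42 ± 0.12 (2.67-fold, adjusted p = 4.55e-05). Elovl6, which turns palmitate into stearate, had 7.04, 6.09 and 7.76 in GFP-high and 9.31, 9.51 and 9.56 in GFP-negative arrays. The groups did not overlap, but the GFP-high arrays were far apart, with the lowest value in replicate 2 and the highest in replicate 3. It fell by 2.50 ± 0.35 (adjusted p = 0.000759), the 49th largest fall of all genes. Elovl7, an elongase of saturated chains, read 7.39, 7.56 and 7.81 in GFP-high and 8.09, 8.59 and 8.39 in GFP-negative arrays and fell by 0.77 ± 0.16 (adjusted p = 0.00702). Elovl1, which makes saturated and monounsaturated very long chains, averaged 8.59 ± 0.07 in GFP-high and 8.30 ± 0.03 in GFP-negative samples (SD, n = 3 each). Its groups did not overlap, yet the difference of 0.29 ± 0.10 did not pass (adjusted p = 0.0688).

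Both measured acyl-CoA synthetases, which activate fatty acids by joining them to coenzyme A, were higher (13.0% of all genes were). Acsl4, which prefers arachidonate, read 9.62, 9.48 and 9.63 in GFP-high and 8.73, 8.75 and 8.36 in GFP-negative arrays, a rise of 0.97 ± 0.14 (adjusted p = 0.000805). Acsl5 read 9.84, 9.71 and 9.83 in GFP-high and 9.25, 9.28 and 9.04 in GFP-negative arrays, a rise of 0.61 ± 0.12 (adjusted p = 0.00418). The other genes of fatty acid synthesis, elongation and activation had 3 higher, 7 lower and 8 not passing of 18. The 16.7% higher was near the 13.0% of all genes, and 38.9% were lower, against 17.0% of all genes. The acetyl-CoA synthetase Acss2 rose by 2.57 ± 0.15 and malic enzyme, Me1, which yields NADPH, by 2.37 ± 0.14. The third higher gene, named after its value was seen, was the dehydratase Hacd3 (0.99 ± 0.12). The very long chain elongase Elovl4 fell by 2.37 ± 0.20 and the dehydratase Hacd1 fell by 1.99 ± 0.16. The count of 7 lower genes was 4 without GFP-negative replicate 1 and 4 without GFP-high replicate 1.

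**Figure D2:**
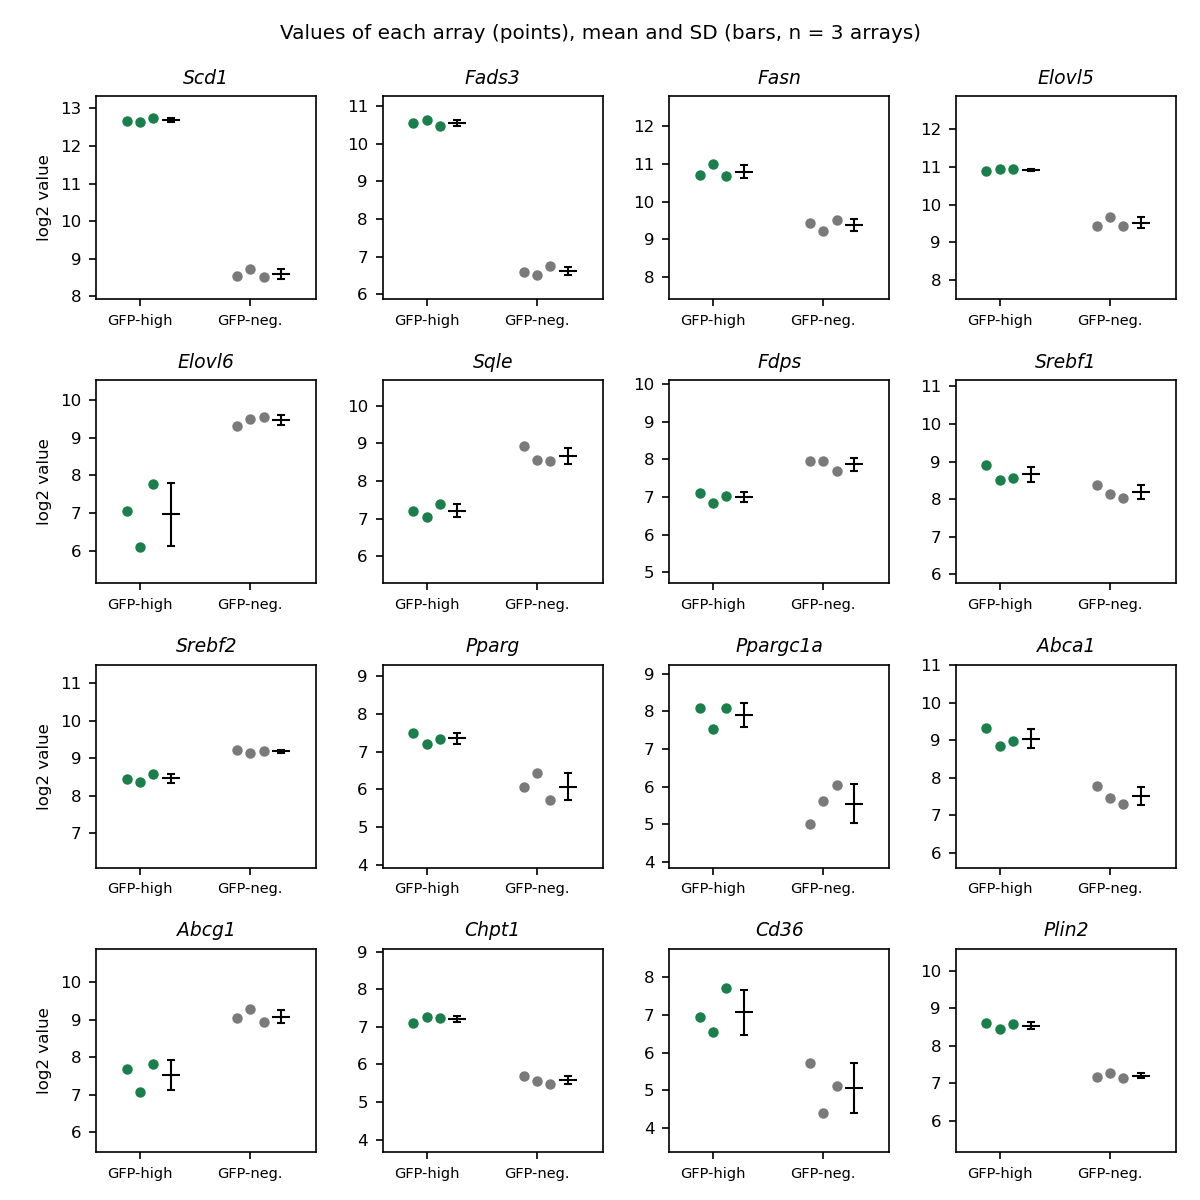
Log2 expression values (y axis, the same span in every panel) of 16 lipid genes in the 3 GFP-high arrays (green, left) and the 3 GFP-negative arrays (grey, right), with the mean and SD of each group beside the points. The 16 genes were picked from the 30 called ones, for all of which the groups do not overlap, so no panel shows overlap. The GFP-high values of Elovl6 run from 6.09 to 7.76.

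Sterol synthesis genes fell or did not pass in GFP-high cells. Of 7 measured members 4 fell, none was higher and 3 did not pass. This was 57.1% lower, against 17.0% of all genes. Sqle, the squalene epoxidase that catalyses an early oxygen-dependent and rate-limiting step, read 7.20, 7.03 and 7.39 in GFP-high and 8.92, 8.57 and 8.52 in GFP-negative arrays. It fell by 1.46 ± 0.15 (adjusted p = 0.000147), and the lowest GFP-negative value stayed above the highest GFP-high one. Fdps, which makes farnesyl diphosphate, read 7.09, 6.84 and 7.03 in GFP-high and 7.96, 7.97 and 7.68 in GFP-negative arrays and fell by 0.88 ± 0.13 (adjusted p = 0.00107). Fdft1, squalene synthase, read 8.99, 8.66 and 8.96 in GFP-high and 9.61, 9.62 and 9.56 in GFP-negative arrays and fell by 0.73 ± 0.12 (adjusted p = 0.00227). Dhcr7, which catalyses a last step to cholesterol, read 7.22, 7.01 and 7.33 in GFP-high and 7.79, 7.92 and 7.85 in GFP-negative arrays and fell by 0.67 ± 0.12 (adjusted p = 0.00318). Replicate 2 was the lowest GFP-high array for each of these 4 genes.

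The 3 sterol enzymes that did not pass had small differences. Hmgcs1, which makes HMG-CoA at the entry to the pathway, averaged 8.71 ± 0.15 in GFP-high and 8.62 ± 0.24 in GFP-negative samples (SD, n = 3 each; difference 0.09, 95% interval -0.25 to 0.44). Mvd, the mevalonate diphosphate decarboxylase, gave 6.50 ± 0.08 in GFP-high and 6.75 ± 0.12 in GFP-negative samples (SD, n = 3 each), a difference of -0.25 (95% interval -0.51 to 0.01), with no overlap between the groups. Lss, lanosterol synthase, gave 7.07 ± 0.19 in GFP-high and 7.32 ± 0.06 in GFP-negative samples (SD, n = 3 each), a difference of -0.24 (95% interval -0.54 to 0.05). The other genes of sterol synthesis, uptake and SREBP processing had none higher, 6 lower and 10 not passing of 16 measured. This was 37.5% lower, against 17.0% of all genes, and the same 37.5% called, near the 30% of all genes. The demethylase Cyp51 fell by 0.99 ± 0.16 and phosphomevalonate kinase, Pmvk, fell by 0.96 ± 0.14. Scap, the SREBP escort protein, fell by 0.90 ± 0.13 and the methyl sterol oxidase Msmo1 fell by 0.88 ± 0.14. Under the alternative settings listed below, the Scap difference ran from -1.01 to -0.54, and only the minimum fold ended its call. Of 17 sterol synthesis enzymes taken from both lists, 9 fell, none rose and 8 did not pass, with a median log2 fold change of -0.67. Ggps1, of the second list, was not among the 17 and did not pass (-0.28 ± 0.13). The share lower among the 17 was 52.9%, against 17.0% of all genes. Replicate 2 was the lowest GFP-high array for 14 of these 17 enzymes.

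**Figure D3:**
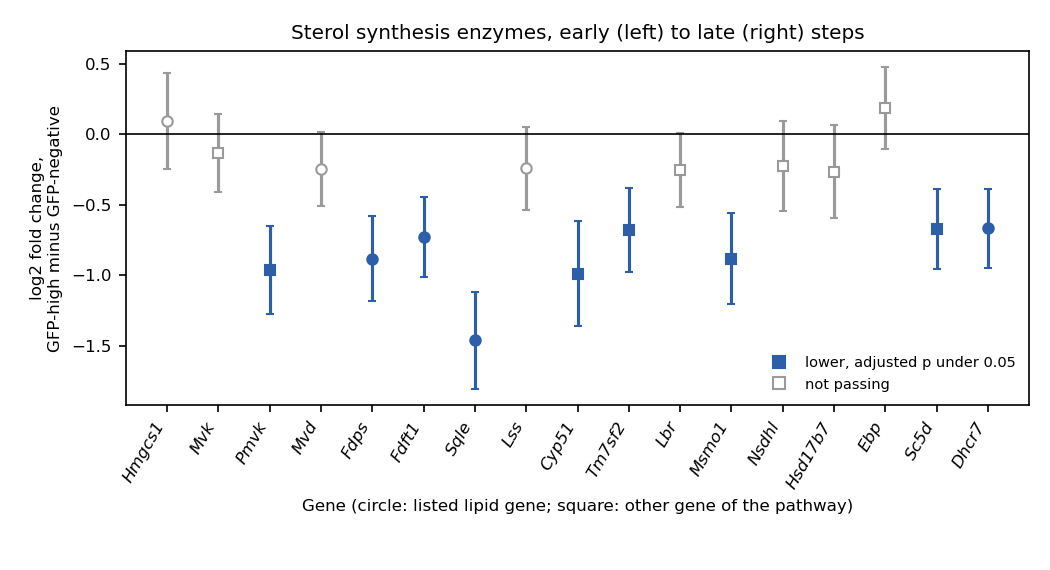
Log2 fold change (GFP-high minus GFP-negative, y axis) of 17 sterol synthesis enzymes ordered from early to late steps, with bars for the 95% interval; circles are listed lipid genes, squares other enzymes of the pathway, and filled symbols passed an adjusted p under 0.05. The 9 called enzymes lie between -1.46 and -0.67, and Hmgcs1 and Ebp lie above 0 without passing.

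The genes that control SREBP activity were called in opposite directions. Srebf2, which encodes SREBP-2, read 8.44, 8.37 and 8.59 in GFP-high and 9.21, 9.14 and 9.19 in GFP-negative arrays and fell by 0.71 ± 0.11 (adjusted p = 0.00135). Srebf1, which encodes SREBP-1, read 8.90, 8.51 and 8.57 in GFP-high and 8.39, 8.15 and 8.03 in GFP-negative arrays. The groups did not overlap, but the rise of 0.47 ± 0.15 was close to the threshold (adjusted p = 0.0437), and the adjusted p lay between 0.0508 and 0.143 without any 1 of the arrays other than GFP-negative replicate 1. Centring each array on its median also ended the Srebf1 call. Insig1, which holds SREBP in the endoplasmic reticulum when sterols are plentiful and is itself a SREBP target, read 9.17, 9.08 and 9.52 in GFP-high and 10.01, 9.97 and 9.63 in GFP-negative arrays. It fell by 0.62 ± 0.16 (adjusted p = 0.0182), and the adjusted p lay between 0.0608 and 0.0702 without replicate 1 or 2 of either group.

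Promoter sequences are shown for 4 genes that differ in their change and in the motifs a search found, from the RefSeq windows of GRCm38.p6 that run from 250 bases before to 50 after a gene's start. Of the 44 genes 35 had a window, 46 windows in all. Scd1, Scd2, Fads1, Sqle, Fdft1, Fdps, Abcg1, Fabp5 and Lpl had none and were not searched. The sterol genes Sqle, Fdft1 and Fdps, which were called lower, are among them. Both strands were searched for the SREBP element TCACNCCAC, for CCAAT, which binds the SREBP partner NF-Y, and for 2 direct repeats of AGGTCA with up to 2 mismatches, spaced by 1 base (DR1, the PPAR type) or by 4 bases (DR4, the LXR type). The SREBP element was in the windows of 3 of the 35 genes, Hmgcs1, Pcyt1a and Acsl1, against 1.44% of all 27025 genes with a window (1.24% of all 32851 windows). CCAAT was in those of 25 of the 35 genes, against 41.1% of all genes (37.4% of all windows). The DR1 repeat was in the windows of Elovl1, Cd36 and Plin2 (4.40% of all genes, 3.86% of all windows), and the DR4 repeat in those of Acsl3 and Dhcr7 (3.47% of all genes, 3.02% of all windows). Capitals mark CCAAT or its reverse complement, ATTGG, in Fasn and Hmgcs1. They also mark the DR1 repeat in Plin2 and the SREBP element in Pcyt1a and Hmgcs1. The Plin2 window also holds CCAAT at position -73, left in lower case. In Fasn, which rose, 2 of the 3 CCAAT matches overlap. In Plin2, which rose, the repeat starts at position -225 from the start. The SREBP element starts at position -116 in Pcyt1a, which fell, and at -137 in Hmgcs1, which did not pass. A match is a description of letters and not a binding site.
Fasn, chr11:120824498-120824797, minus strand: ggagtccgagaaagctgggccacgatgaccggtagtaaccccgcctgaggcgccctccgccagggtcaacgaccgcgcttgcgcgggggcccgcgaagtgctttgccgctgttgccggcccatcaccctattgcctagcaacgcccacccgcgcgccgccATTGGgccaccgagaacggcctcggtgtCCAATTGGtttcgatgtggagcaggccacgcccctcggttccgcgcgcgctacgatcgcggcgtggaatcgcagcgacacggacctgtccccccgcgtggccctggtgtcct
Plin2, chr4:86670010-86670309, minus strand: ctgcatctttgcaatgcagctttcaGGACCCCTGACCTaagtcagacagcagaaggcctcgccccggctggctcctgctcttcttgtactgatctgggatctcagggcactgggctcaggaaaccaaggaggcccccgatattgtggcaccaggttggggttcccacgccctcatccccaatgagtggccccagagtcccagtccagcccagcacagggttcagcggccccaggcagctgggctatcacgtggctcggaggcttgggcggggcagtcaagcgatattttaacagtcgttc
Pcyt1a, chr16:32430671-32430970, plus strand: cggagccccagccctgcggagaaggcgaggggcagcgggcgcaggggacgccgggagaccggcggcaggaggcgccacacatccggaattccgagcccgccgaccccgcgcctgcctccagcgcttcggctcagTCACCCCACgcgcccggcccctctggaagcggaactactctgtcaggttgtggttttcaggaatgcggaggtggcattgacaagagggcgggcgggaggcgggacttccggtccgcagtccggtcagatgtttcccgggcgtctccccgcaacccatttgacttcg
Hmgcs1, chr13:119690101-119690400, plus strand: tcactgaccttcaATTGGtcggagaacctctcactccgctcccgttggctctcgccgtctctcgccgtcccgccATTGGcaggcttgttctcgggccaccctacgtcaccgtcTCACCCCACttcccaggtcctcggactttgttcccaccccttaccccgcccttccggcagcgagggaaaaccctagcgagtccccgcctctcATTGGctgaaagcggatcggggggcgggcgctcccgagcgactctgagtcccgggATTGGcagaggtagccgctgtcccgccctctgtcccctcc

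The nuclear receptors of lipid metabolism and the coactivator PGC-1 alpha were higher in GFP-high cells, all 4 of them called (13.0% of all genes were called higher). Ppargc1a, the coactivator that drives mitochondrial and oxidative genes, read 8.09, 7.53 and 8.09 in GFP-high and 4.99, 5.61 and 6.04 in GFP-negative arrays. Its rise of 2.35 ± 0.27 was 5.11-fold (adjusted p = 0.000238), with a gap between the groups wider than the spread of either. Pparg, the receptor for fatty acid ligands that promotes lipid storage, read 7.51, 7.21 and 7.34 in GFP-high and 6.07, 6.43 and 5.72 in GFP-negative arrays and rose by 1.28 ± 0.18 (adjusted p = 0.000815). Nr1h3, which encodes LXR alpha, read 6.25, 6.59 and 6.27 in GFP-high and 5.54, 5.84 and 5.79 in GFP-negative arrays, a rise of 0.65 ± 0.14 (adjusted p = 0.00791). Ppara, the receptor that promotes fatty acid oxidation, read 5.12, 5.37 and 5.07 in GFP-high and 4.95, 4.48 and 4.42 in GFP-negative arrays. Its rise was 0.57 ± 0.17 (adjusted p = 0.0299), and the adjusted p lay between 0.0616 and 0.102 without GFP-negative replicate 2 or 3 or without GFP-high replicate 1 or 2. The Ppara means, 5.19 in GFP-high and 4.62 in GFP-negative samples, lay below the lowest array median of 5.30.

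The 2 cholesterol efflux transporters moved in opposite directions. Abca1, which loads cholesterol onto lipid-poor apolipoprotein, read 9.31, 8.84 and 8.98 in GFP-high and 7.77, 7.47 and 7.31 in GFP-negative arrays, a rise of 1.53 ± 0.17 (2.88-fold, adjusted p = 0.000211). Abcg1, which moves cholesterol to high-density lipoprotein, read 7.69, 7.09 and 7.82 in GFP-high and 9.03, 9.27 and 8.94 in GFP-negative arrays and fell by 1.55 ± 0.20 (adjusted p = 0.000428). Neither pair of groups overlapped. Both genes are known LXR targets.

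Genes of phosphatidylcholine synthesis were split between steps of 1 route. Chpt1, the cholinephosphotransferase of the last step, read 7.11, 7.26 and 7.25 in GFP-high and 5.70, 5.55 and 5.48 in GFP-negative arrays and rose 3.09-fold (1.63 ± 0.11, adjusted p = 1.82e-05). Chka, the choline kinase of the first step, read 9.50, 9.39 and 9.11 in GFP-high and 8.88, 8.90 and 8.92 in GFP-negative arrays. Its rise of 0.43 ± 0.13 (adjusted p = 0.0338) had an adjusted p between 0.0721 and 0.119 without any 1 of the arrays other than GFP-high replicate 3. The call was also lost with arrays centred on their medians, and a second Chka row at a lower level did not pass (0.23 ± 0.15). Pcyt1a, the CTP:phosphocholine transferase that sets the rate between them, read 6.51, 6.45 and 6.57 in GFP-high and 7.21, 7.14 and 7.01 in GFP-negative arrays and fell by 0.61 ± 0.11 (adjusted p = 0.00319). The acyltransferases that remodel phosphatidylcholine also differed from each other. Lpcat2, which can also make platelet-activating factor, read 6.09, 5.54 and 6.24 in GFP-high and 7.11, 6.69 and 6.85 in GFP-negative arrays and fell by 0.93 ± 0.20 (adjusted p = 0.00692). Lpcat3, which inserts polyunsaturated chains, averaged 9.02 ± 0.07 in GFP-high and 8.67 ± 0.15 in GFP-negative samples (SD, n = 3 each). Its difference of 0.35 ± 0.12 did not pass (adjusted p = 0.0591), and it passed without GFP-negative replicate 2 (adjusted p = 0.0327).

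The other genes of phospholipid and triglyceride synthesis had 3 higher, 8 lower and 13 not passing of 24. The 12.5% higher was near the 13.0% of all genes, and 33.3% were lower, against 17.0% of all genes. Gpam, the mitochondrial acyltransferase that starts glycerolipid synthesis, averaged 10.45 ± 0.13 in GFP-high and 7.08 ± 0.15 in GFP-negative samples (SD, n = 3 each) and rose 10.4-fold (3.38 ± 0.13). Of the lysophospholipid acyltransferases, Mboat1 rose by 1.82 ± 0.12, while Mboat2 fell by 2.01 ± 0.20 and Lpcat4 fell by 1.56 ± 0.22. Lpcat1, named after its value was seen, was the third higher gene.

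Genes of fatty acid uptake, binding and storage differed among themselves. Plin2, a protein that coats lipid droplets, read 8.60, 8.45 and 8.57 in GFP-high and 7.18, 7.28 and 7.15 in GFP-negative arrays, a 2.52-fold rise (1.33 ± 0.11, adjusted p = 4.46e-05). Cd36, a fatty acid translocase also found on macrophages, read 6.95, 6.55 and 7.73 in GFP-high and 5.72, 4.39 and 5.10 in GFP-negative arrays. It rose by 2.00 ± 0.37 (adjusted p = 0.00332), with the largest SD of the set within GFP-negative cells, 0.67, and 0.60 within GFP-high cells. Replicate 2 was its lowest array in both groups, and it was also the lowest GFP-high array for 13 of 14 macrophage markers. The part of macrophages in the Cd36 values was not tested. Fabp5, an intracellular fatty acid carrier, read 6.31, 6.01 and 6.16 in GFP-high and 7.45, 7.10 and 7.74 in GFP-negative arrays and fell by 1.27 ± 0.17 (adjusted p = 0.000627). A further 3 Fabp5 rows were also called, with differences between -2.35 ± 0.44 and -1.43 ± 0.19. Lpl, the lipase that frees fatty acids from lipoproteins, averaged 5.80 ± 0.29 in GFP-high and 6.18 ± 0.29 in GFP-negative samples (SD, n = 3 each) and did not pass (-0.37 ± 0.19, adjusted p = 0.189). A second Lpl row, at a lower level, gave -0.02 ± 0.12.

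The other genes of lipid droplets, transport and efflux had 9 higher, 1 lower and 19 not passing of 29. This was 31.0% higher and 3.45% lower, against 13.0% and 17.0% of all genes, and 34.5% called, near the 30% of all genes. The lower count was 2 without GFP-high replicate 3. Npc2, which hands cholesterol out of lysosomes, rose by 2.96 ± 0.14 and the lysosomal acid lipase Lipa by 1.79 ± 0.16. The lipoprotein receptor Lrp1 rose by 2.32 ± 0.24 and the droplet protein Plin3 by 1.69 ± 0.16. The lower gene, named after its value was seen, was Scarb1, a receptor for high-density lipoprotein, which fell by 0.68 ± 0.12. Lists overlap here: Abca3, also higher, is an alveolar type 2 marker as well, and Lipe is an adipocyte marker as well.

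The 2 listed genes of fatty acid oxidation did not pass. Cpt1a, the gate for entry of long chains into mitochondria, read 8.10, 8.43 and 8.67 in GFP-high and 7.55, 8.17 and 7.77 in GFP-negative arrays, which overlap. Its difference of 0.57 ± 0.19 had an adjusted p of 0.0582, which was 0.0225 without GFP-negative replicate 2 and 0.0352 without GFP-high replicate 1. Acoxl, an acyl-CoA oxidase-like gene, averaged 5.30 ± 0.12 in GFP-high and 5.12 ± 0.22 in GFP-negative samples (SD, n = 3 each; difference 0.18 ± 0.14, adjusted p = 0.394). The other genes of oxidation had 11 higher, 2 lower and 7 not passing of 20, or 55.0% and 10.0%, against 13.0% and 17.0% of all genes. Hadh, a dehydrogenase of the mitochondrial cycle, rose by 1.64 ± 0.13, the thiolase Acaa2 by 1.11 ± 0.16 and Pdk4, a kinase that restrains pyruvate oxidation, by 1.50 ± 0.21. Cpt1c, a brain relative of Cpt1a, fell by 1.47 ± 0.12. Cpt2, the partner of Cpt1a inside mitochondria, was the other lower gene (-0.54 ± 0.13, named after its value was seen), and 1 lower gene was left without GFP-high replicate 2.

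**Figure D4:**
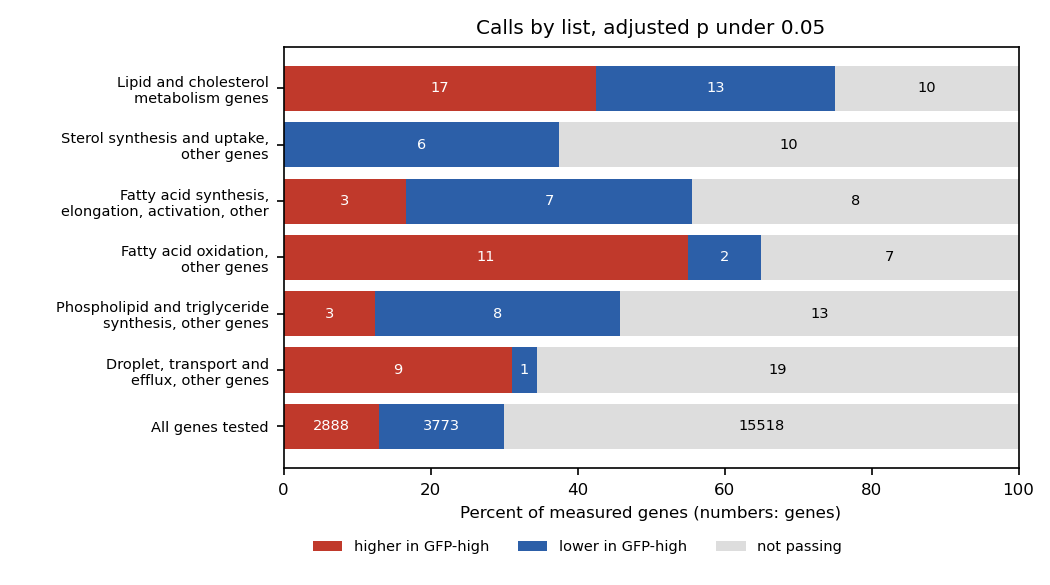
Percent of measured genes (x axis) that were higher (red), lower (blue) or not passing (grey) in GFP-high cells at an adjusted p under 0.05, for the lipid and cholesterol metabolism genes, 5 lists of other genes of the same pathways and all genes tested; the numbers are genes. Sterol genes outside the set had 6 lower and none higher, and fatty acid oxidation genes had 11 higher and 2 lower.

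Of the 13 lower genes 12 had their lowest GFP-high value in replicate 2, and 10 had their highest in replicate 3. How often replicate 2 was the lowest GFP-high array over all genes, or over all genes called lower, was not counted. Such counts, here and above, are thus not shown to be particular to these genes. Relative to the GFP-negative mean, their median difference was -0.78, -0.94 and -0.64 in GFP-high replicates 1, 2 and 3. Neuroendocrine markers had the same order in those arrays, -2.53, -2.74 and -1.74, with 8 of 10 lowest in replicate 2 and 10 of 10 highest in replicate 3. For the 17 higher genes the medians were 1.39, 1.24 and 1.31, and replicate 2 was the lowest GFP-high array for 9 of them. Without GFP-high replicate 3, 15 genes were higher and 13 lower, and without GFP-high replicate 2, 13 were higher and 12 lower. The part of the neuroendocrine signal in the lowered lipid genes was not tested.

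**Figure D5:**
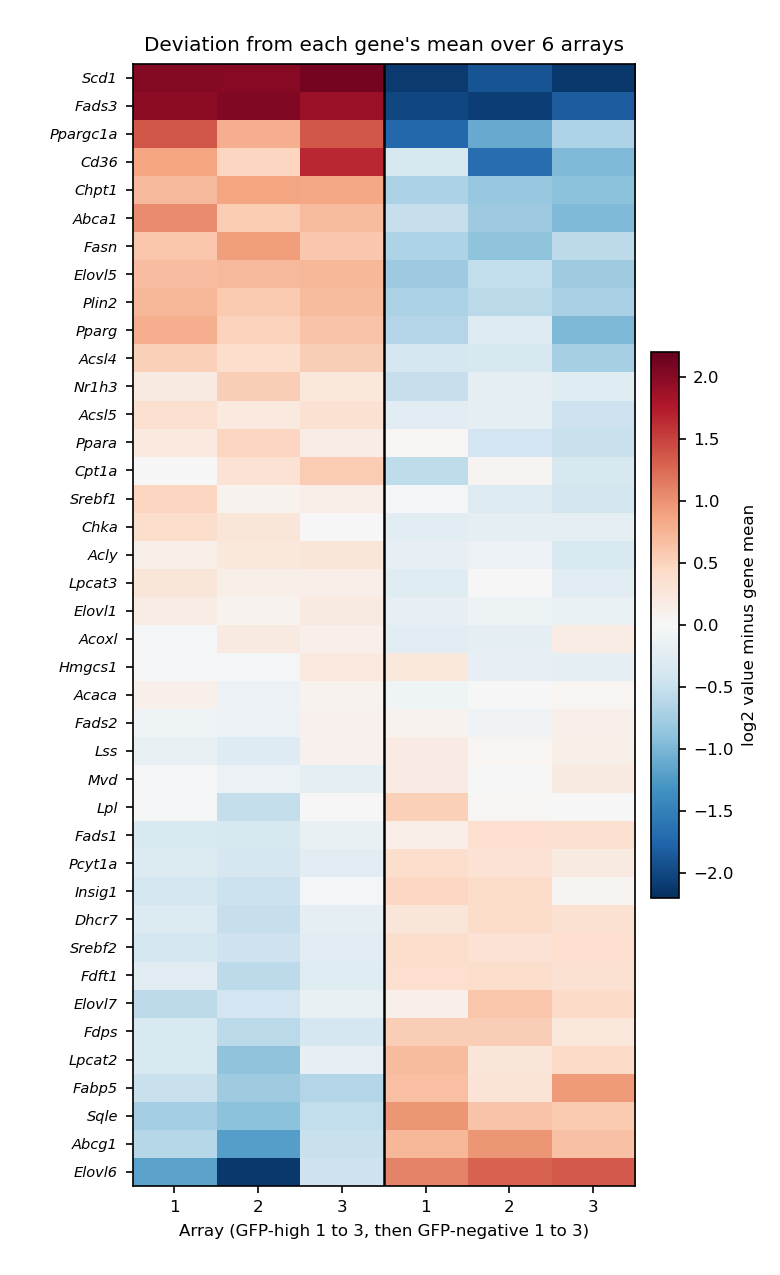
Deviation of each log2 value from its gene's mean over the 6 arrays (colour, log2 units) for the 40 measured lipid genes (rows, sorted by log2 fold change) in GFP-high arrays 1 to 3 (left) and GFP-negative arrays 1 to 3 (right). In the bottom rows GFP-high replicate 2 is the lowest array for 12 of the 13 genes called lower.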

How the data were processed

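Affymetrix Mouse Gene 2.0 ST arrays were hybridised with total RNA of the 6 samples, per the labels. The deposited log2 expression values were made by the authors with RMA, per the submitters' processing notes, with no version stated in the material used here. That step equalises array distributions and compresses folds of dim genes. Array medians ran from 5.30 to 5.43 over 41344 rows, of which 23520 name 1 gene in the platform annotation, 1814 several and 16010 none. By Entrez identifier 23327 matched RefSeq, and 0 symbols changed.

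GFP-high and GFP-negative arrays were compared with limma 3.58.1 in R 4.3.3 (lmFit and eBayes, 4.50 prior and 4 residual degrees of freedom, no block), two-sided, adjusted over all 22179 genes. Exact permutation of 3 against 3 arrays cannot give a p below 0.10 and was not used. The fit was tested on simulated data. Promoters were searched in Python 3.11.15. Summed marker levels add 2 to the power of each log2 value. The members, lists and role groups were chosen with earlier results of these data known, so their counts are descriptions. Named other genes are the up to 4 largest changes among the called genes of each list. Alternatives were quantile normalization, median centring, a filter on low genes, the mean of rows, trend and robust variance, no moderation, a minimum fold, the replicate block and leaving out each array. Fitting every row on its own was added after seeing the data.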

Additional observations from a re-analysis of the deposited data

How the results depend on the processing

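All 30 called lipid genes kept their sign under the 14 alternatives, and 13 also kept their call under every one. With a minimum absolute log2 fold change of 1 required, which removes smaller changes by construction, 14 lipid genes were called, 10 higher and 4 lower, and 2584 of all genes, 1249 higher and 1335 lower. Under the other alternatives 24 to 33 lipid genes were called. Leaving out 1 array gave 25 to 28 lipid genes and 5408 to 6116 of all genes. Without moderation 24 lipid genes were called, and Elovl7, Lpcat2 and Cd36 were among those lost. The sign of Acaca, which did not pass, turned when 1 array was left out (log2 fold change -0.0093 to 0.11; the cause was not tested). With the replicate block 29 lipid genes and 6172 of all genes were called, and Acly and Chka lost their call. Over all genes, deviations of same-numbered samples had correlations of 0.114, -0.0256 and -0.0016, and those of differently numbered samples -0.0732 to 0.0633. The labels state no pairing, so the numbers were not taken as pairs. Such correlations cannot show whether same-numbered samples shared a pool. Macrophage markers were lowest in replicate 2 of both groups. Their median differences from the GFP-negative mean were 0.28, -0.19 and 0.21 in GFP-high and 0.26, -0.30 and 0.03 in GFP-negative replicates 1, 2 and 3. The filter on low genes, quantile normalization and the trend setting each called 33, adding Elovl1, Lpcat3 and Cpt1a. The calls nearest the threshold (Acly, Srebf1, Insig1, Ppara and Chka) rest on 3 arrays a group, and no measure of signal over background was used.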

Other observations

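The genes below are named after their values were seen. Among acyl-CoA synthetases, Acsl6, a form known from brain, fell by 1.09 ± 0.13, with 6.09, 6.40 and 6.39 in GFP-high and 7.34, 7.50 and 7.31 in GFP-negative arrays, while Acsl4 and Acsl5 rose. Among the lysophosphatidylcholine acyltransferases, Lpcat1, which makes surfactant phosphatidylcholine in alveolar type 2 cells, rose by 0.49 ± 0.11 (8.52 ± 0.06 in GFP-high and 8.03 ± 0.06 in GFP-negative samples; SD, n = 3 each). Lpcat4 and Lpcat2 fell. Abca3, which pumps phospholipid into lamellar bodies, rose by 1.50 ± 0.15, and its GFP-high values of 10.11, 10.21 and 10.29 lay above the GFP-negative values of 8.68, 8.98 and 8.45.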
